A study of Mus musculus with 12 samples.

Results

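The genes described here are 55 components of the machinery of mitosis, grouped by the textbook stages of the process. They were chosen with earlier results of these data known. Counts of them set beside shares of all genes are therefore descriptions and not an independent test of the list. A probe set counted as a member when the annotation of the array gave it the symbol of 1 of these genes and no other. By this rule 54 of the 55 genes were measured, by 124 of the 45037 probe sets tested and among 18193 genes in all. Ccnb1, which encodes cyclin B1, had no such probe set. In RefSeq on build GRCm38.p6 the 55 genes lie on 17 chromosomes, with at most 9 on 1 of them, chromosome 2. The values are log2 of RMA intensities, and the probe set with the highest mean over the arrays stood for its gene.

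RNA of whole neural retina was measured on 12 arrays, 2 for each of 6 groups, from male mice 10 weeks old of the inbred strains 129X1/SvJJmsSlc (129) and C57BL/6NCrSlc (B6). In each strain the groups were retinal explants kept for 3 days in vitro (3DIV) with the glycogen synthase kinase 3 (GSK3) inhibitor CHIR99021, at 15 µM in the labels, explants kept for 3DIV with vehicle, and the intact retina, called normal. Explanting is the damage in this design. Arrays of 1 group are biological replicates by their labels, but whether both retinas of a group came from a single animal is not stated, so that p-values measure the spread between these arrays.

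Mitosis begins when Cdk1 with a B-type cyclin is activated, after which chromosomes condense, kinetochores on the centromeres attach to spindle microtubules, a checkpoint delays anaphase until all are attached, and the anaphase-promoting complex then releases the sister chromatids before the cell divides. Most of these genes are transcribed in G2 and mitosis, by the MuvB complex with B-MYB and FOXM1, and are low in cells that do not cycle. The adult mouse retina is made of neurons that no longer divide and of Müller glia that rest. Müller glia and microglia can enter the cycle after injury. Because whole retina was measured, fewer cells of a type and less RNA per cell cannot be told apart.

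The 2 arrays of a group correlated at 0.9965 to 0.9978 over all probe sets, and no gene of the list differed by more than 2-fold between them. Array 2 of the 129 normal retina stood apart in lens genes. Their summed intensity was 35264 on that array and 2276 on array 1, against 1147 to 1295 in the B6 normal retina. B6 explants summed to 4423 to 4467 with vehicle and 5907 to 6112 with inhibitor. Of 12 lens genes, 10 lay above the array median on array 2 and 8 on array 1, against 2 on each B6 normal array. Array 2 is the one called rich in lens RNA below, and the counts and leading values that rest on it are given without it too. Those values are not free of lens RNA, since array 1 carries some as well. Markers of pigmented epithelium and melanocytes, 12 genes, summed to 479 to 528 in 129 explants with vehicle, against 4730 and 11251 in the 129 normal retina, and to 513 to 515 in B6 explants with vehicle, against 12495 and 10292 in the B6 normal retina. Müller glial markers were above the median of the array on all 12 arrays for each of 15 genes. The 13 measured rod markers summed to 40837 to 45247 in 129 explants with inhibitor, 53769 to 58389 in 129 explants with vehicle and 126150 to 129180 in the 129 normal retina. The corresponding sums in B6 were 43328 to 43802, 61952 to 64627 and 125750 to 128640. Their part in the results below was not tested.

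The first question was which mitotic genes responded to the GSK3 inhibitor in each strain. In 129 explants 43 of the 54 genes were higher with inhibitor and 1 was lower, where 7.28% of all genes were called higher and 7.86% lower. The median difference over the 54 genes was 1.07 on the log2 scale, against 0.01 over all genes, and 28 genes were at least 2-fold and 4 at least 4-fold higher. In B6 explants 5 genes were higher and 4 lower, with 8.59% and 12.5% of all genes called in these directions and a median of 0.09 against -0.01. Calls are those of limma with Benjamini-Hochberg adjustment over all probe sets at 0.05.

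**Figure D1:**
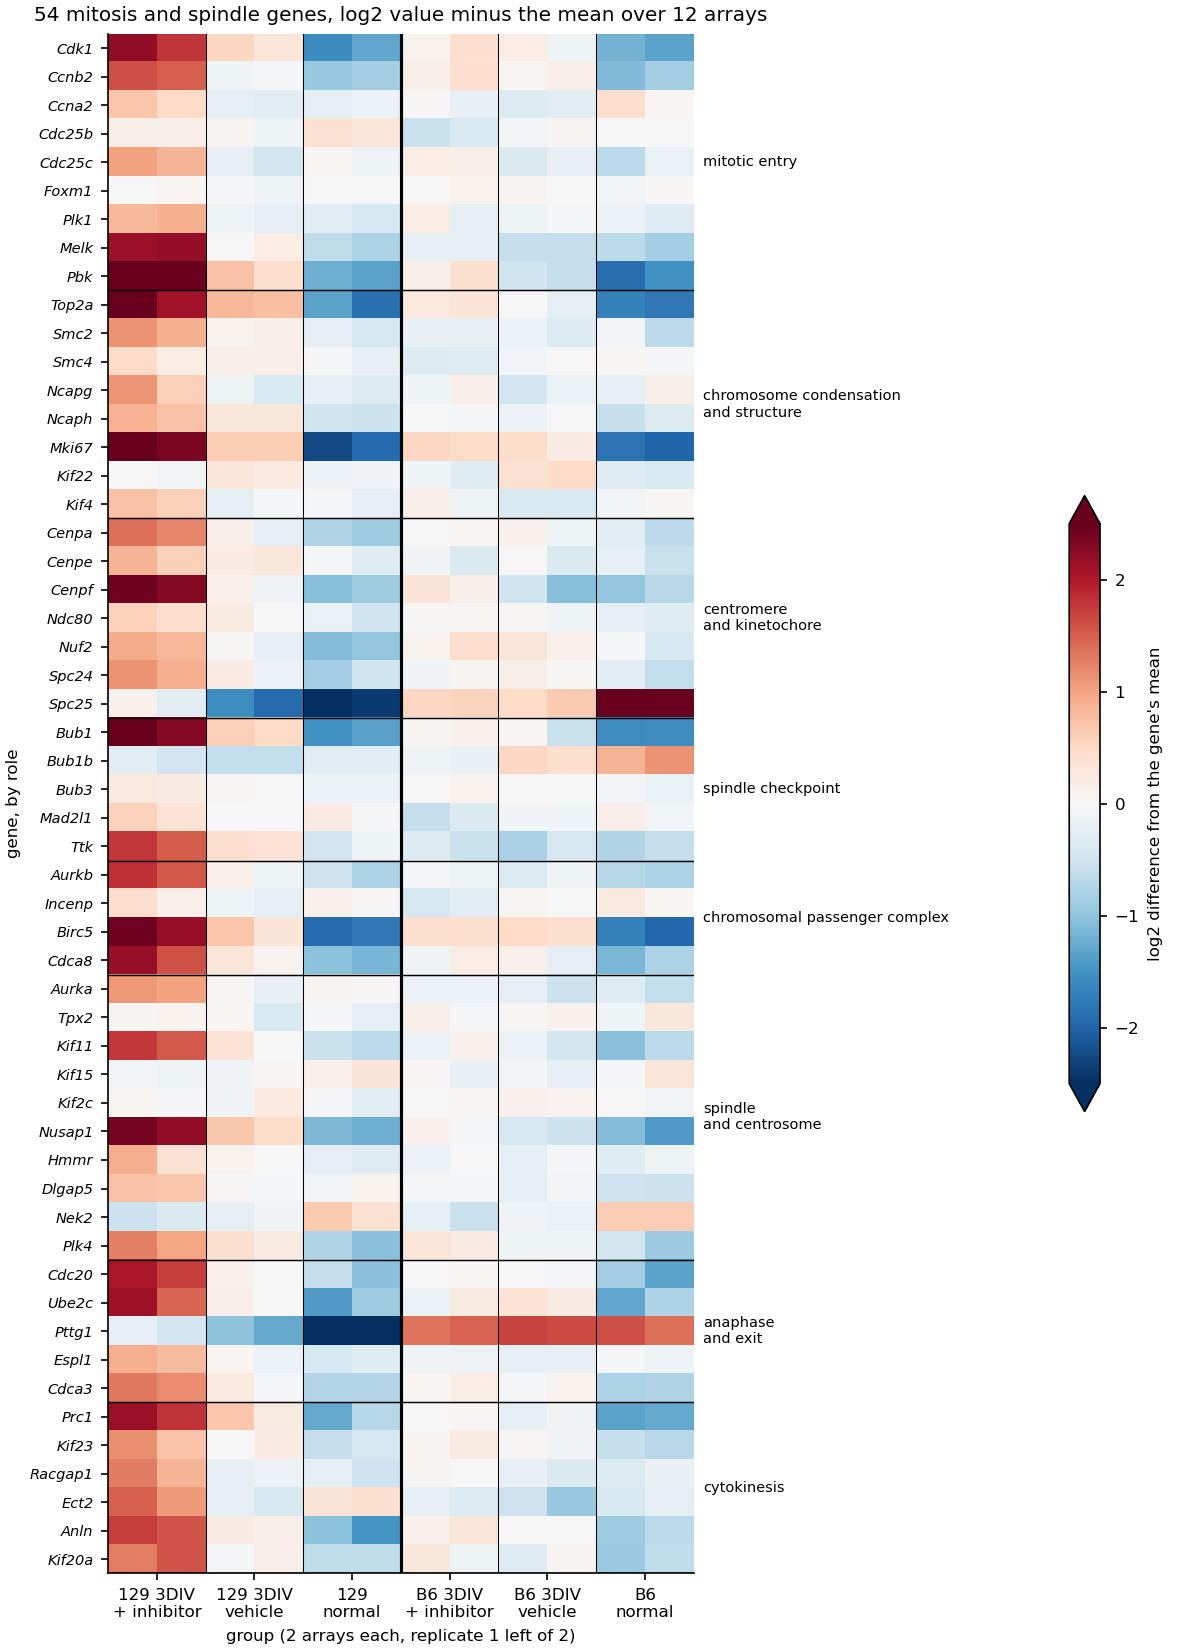
Log2 value of each of 54 mitosis and spindle genes on each of 12 arrays, minus the mean of that gene over the arrays, with genes in rows by role and the 2 arrays of each group side by side. The darkest reds lie in the columns of 129 explants with inhibitor. Spc25, Pttg1 and, to a lesser degree, Bub1b are rows that are higher in B6 than in 129 in the normal retina.

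Among the genes of mitotic entry, 7 of 9 measured rose in 129 explants with inhibitor. Cdk1, the kinase that drives entry, read 9.01 and 8.58 on the log2 scale in 129 explants with inhibitor, against 7.34 and 7.09 in those with vehicle. Both values with inhibitor lay above both with vehicle, a difference of 1.58 (SE 0.17, adjusted p = 3.12e-04 from limma). In B6 explants the same gene read 6.89 and 7.22 with inhibitor, against 6.98 and 6.68 with vehicle, and these values overlapped. The kinases Melk and Pbk had the largest differences of this group. Melk read 6.94 and 6.97 in 129 explants with inhibitor, against 4.79 and 4.97 with vehicle, and rose by 2.07 (SE 0.09, adjusted p = 9.56e-07). Pbk rose by 2.07 (SE 0.15) in 129 and by 0.81 (SE 0.15) in B6, so that it was called in both strains. Plk1, the polo-like kinase that acts from entry to exit, read 6.84 and 6.91 with inhibitor in 129 explants, against 5.89 and 5.79 with vehicle, a difference of 1.04 (SE 0.12, adjusted p = 4.95e-04).

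The members of this group that were not called were Foxm1 and Cdc25b. Foxm1, a transcription factor of G2 and mitotic genes, lay between 6.94 and 7.13 on every array of the series, and its difference in 129 was 0.11 (SE 0.07, adjusted p = 0.372). Cdc25b, a phosphatase that activates Cdk1, differed by 0.17 in 129 (adjusted p = 0.272) and fell in B6, where it read 5.82 and 6.0 with inhibitor, against 6.31 and 6.44 with vehicle (difference -0.47, SE 0.09, adjusted p = 0.00486).

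Of 8 genes of chromosome condensation and structure, 6 rose in 129 explants with inhibitor. Mki67, which coats mitotic chromosomes and is the gene of the Ki-67 proliferation antigen, read 9.18 and 8.77 in 129 explants with inhibitor, against 7.04 and 7.05 with vehicle. It rose by 1.93 (SE 0.14, adjusted p = 2.57e-05), which is 3.80-fold. In B6 explants Mki67 read 6.93 and 6.88 with inhibitor, against 6.86 and 6.62 with vehicle, a difference of 0.17 (SE 0.14, adjusted p = 0.481). Top2a, the topoisomerase that separates intertwined sister chromatids, read 9.35 and 8.88 against 7.60 and 7.53 in 129 and rose by 1.55 (SE 0.17, adjusted p = 3.55e-04). In B6 it read 7.05 and 7.10 with inhibitor, against 6.79 and 6.56 with vehicle, values that did not overlap but gave a difference of 0.40 below the threshold (adjusted p = 0.142). The condensin subunits Ncapg, Ncaph and Smc2 rose by 0.51 to 1.10 in 129, whereas a further one, Smc4, differed by 0.18 in 129 (adjusted p = 0.300) and by -0.29 in B6 (adjusted p = 0.0714) and was not called.

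Kif22, a chromosome-binding kinesin, was the gene that went the other way. It read 10.86 and 10.80 in 129 explants with inhibitor, against 11.18 and 11.12 with vehicle, and 10.76 and 10.57 in B6 explants with inhibitor, against 11.24 and 11.36 with vehicle. It fell in both strains, by 0.32 (SE 0.08, adjusted p = 0.0303) in 129 and by 0.63 (SE 0.08, adjusted p = 5.95e-04) in B6. In 129 the call was lost without any 1 of the 4 arrays compared, and the mean of its probe sets differed by -0.01. Its dimmer probe set 1423813_at had the opposite sign in 129, at 0.46 (adjusted p = 0.0637).

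**Figure D2:**
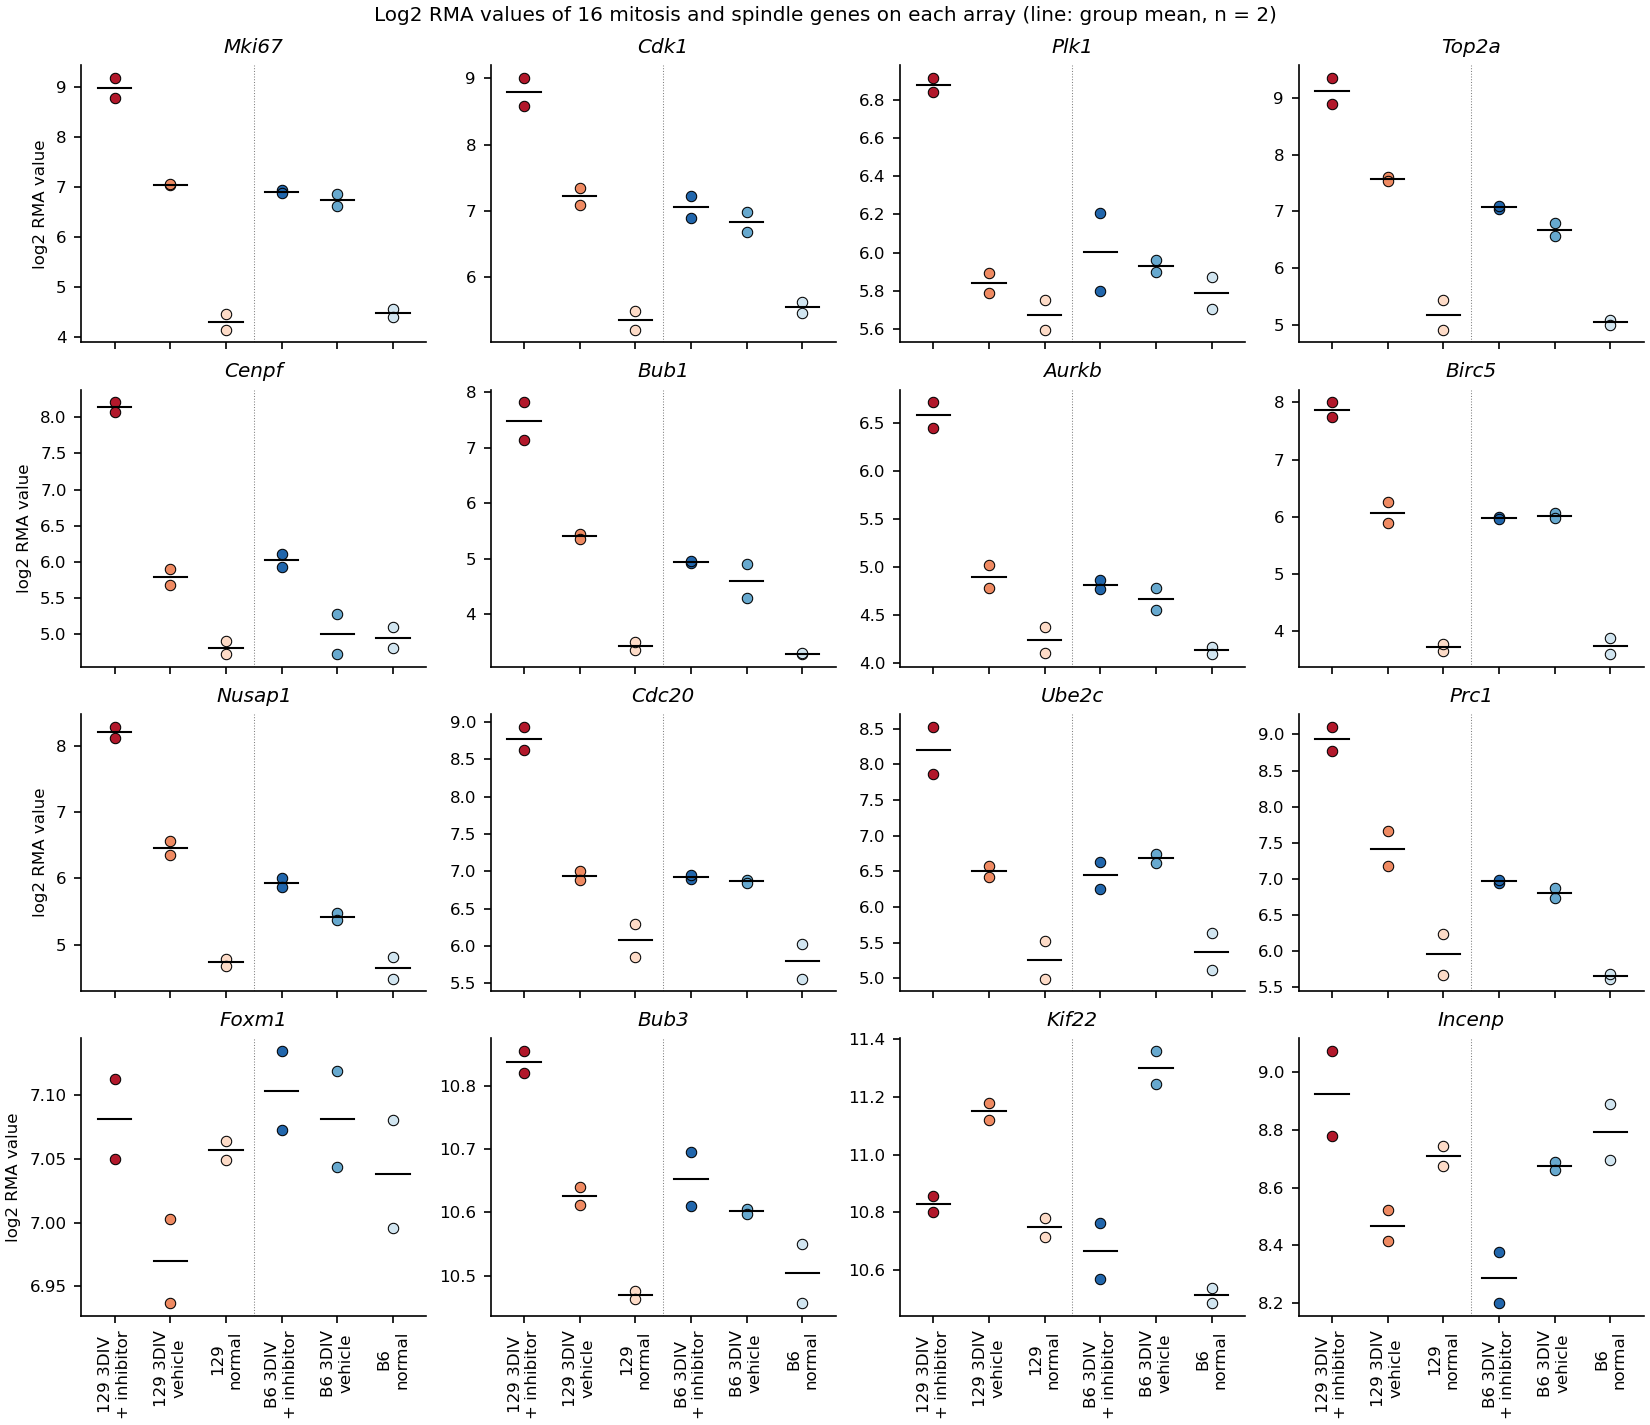
Log2 RMA value of 16 mitosis and spindle genes on each array (vertical axes, with a range of their own for each gene), in 6 groups of 2 arrays with 129 left of the dotted line and B6 right of it. Points are arrays and lines are group means, and in 12 of the panels, from Mki67 to Prc1, the 129 explants with inhibitor are the highest group, whereas Foxm1 stays between 6.94 and 7.13.

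At the centromere and kinetochore 6 of 7 genes rose in 129. Cenpf, a large kinetochore protein, had the largest difference of the 54 genes by their brightest probe sets. It read 8.21 and 8.08 in 129 explants with inhibitor, against 5.89 and 5.68 with vehicle, and rose by 2.36 (SE 0.17, adjusted p = 2.38e-05), which is 5.12-fold. Cenpf also had the largest difference in B6, where it read 6.11 and 5.93 with inhibitor, against 5.28 and 4.72 with vehicle (1.02, SE 0.17, adjusted p = 0.00225). Over 18 alternatives the difference of Cenpf went down to 0.98 in 129 and to 0.32 in B6, so that its rank depends on the setting. The 4 subunits of the NDC80 complex, which binds the end of the microtubule, all rose in 129, with differences of 0.41 for Ndc80, 0.98 for Nuf2, 1.0 for Spc24 and 1.67 for Spc25, and none was called in B6. Cenpe, a kinesin of the kinetochore, differed by 0.48 and was not called at its brightest probe set, whereas its probe set 1439040_at rose by 1.40.

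Of 5 checkpoint genes, Bub1, Ttk and Mad2l1 rose in 129. The checkpoint kinase Bub1 read 7.82 and 7.14 in 129 explants with inhibitor, against 5.45 and 5.35 with vehicle (2.08, SE 0.21, adjusted p = 1.90e-04). In B6 explants Bub1 read 4.91 and 4.95 with inhibitor, against 4.90 and 4.29 with vehicle. Bub3, which carries BUB1 and BUBR1 to kinetochores, lay between 10.46 and 10.85 on all arrays, and its 0.21 in 129 missed the threshold (adjusted p = 0.0735), though its dimmer probe set 1459104_at was called at 0.48. Bub1b, the gene of BUBR1, differed by 0.24 in 129 (adjusted p = 0.156) and fell by 0.63 in B6 (SE 0.10, adjusted p = 0.00176).

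All 4 genes of the chromosomal passenger complex, which corrects wrong attachments and prepares the cleavage furrow, rose in 129 and none of them rose in B6. Aurkb, its kinase, read 6.71 and 6.45 in 129 explants with inhibitor, against 5.02 and 4.78 with vehicle (1.68, SE 0.13, adjusted p = 2.99e-05). In B6 explants Aurkb read 4.86 and 4.76 with inhibitor, against 4.55 and 4.78 with vehicle, and the values overlapped. Birc5, which encodes survivin, read 8.0 and 7.75 against 6.25 and 5.89 in 129 (1.80, SE 0.13, adjusted p = 2.57e-05). In B6 its values were 5.99 and 5.96 with inhibitor and 6.06 and 5.98 with vehicle. Incenp, the scaffold, rose by 0.46 in 129 (adjusted p = 0.0216) and fell by 0.39 in B6 (adjusted p = 0.0322), where the call was lost under centring on housekeeping genes (-0.32, adjusted p = 0.0555) and with the mean of its probe sets (-0.20, adjusted p = 0.0661). It was lost too when B6 3DIV replicate 1 (adjusted p = 0.127), B6 3DIV replicate 2 (adjusted p = 0.107) or B6 3DIV GSK3 inhibitor replicate 1 (adjusted p = 0.182) was left out.

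Among 10 spindle and centrosome genes 6 rose in 129, with Nusap1, a microtubule-bundling protein, at 1.75 (SE 0.12, adjusted p = 2.10e-05), the kinesin Kif11 at 1.49 and the kinase Aurka at 1.12. The 4 that were not called, Tpx2, Kif15, Kif2c and Nek2, had differences of -0.27 to 0.24 at their brightest probe sets. Other probe sets of 3 of them were called higher. Kif2c, a kinesin that takes microtubules apart, rose by 2.29 at 1437611_x_at (adjusted p = 2.25e-05) and by 0.72 at 1449060_at, Nek2, a centrosomal kinase, by 1.04 at 1437580_s_at and 0.97 at 1417299_at, and Tpx2, the activator of Aurora A, by 1.30 at 1428104_at. For the 11 genes not called higher, 5 had another probe set that was. Over all genes of the list, 12 of 70 further probe sets had the opposite sign to the brightest one, of which the 4 called ones are those of Kif2c and Nek2 just given. The others were single probe sets of Foxm1, Kif22, Cenpa, Bub1b, Bub3, Incenp and Cdca3 and a further one of Kif2c.

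All 5 genes of anaphase and exit and all 6 of cytokinesis rose in 129, and at their brightest probe sets none of the 11 was called in B6. Cdc20, which activates the anaphase-promoting complex, read 8.94 and 8.62 in 129 explants with inhibitor, against 7.0 and 6.88 with vehicle (1.84, SE 0.17, adjusted p = 9.72e-05). Ube2c, the ubiquitin-conjugating enzyme of that complex, read 8.53 and 7.87 against 6.58 and 6.42 (1.70, SE 0.24, adjusted p = 0.00147). The remaining rises in 129 were 0.80 for Pttg1 (securin), 0.91 for Espl1 (separase) and 1.15 for Cdca3. In the cytokinesis group the rises ran from 0.84 for Kif23 to 1.59 for Ect2, the exchange factor that activates RhoA at the cleavage furrow, and Prc1, which bundles the central spindle, rose by 1.52.

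The genes called higher in B6 were Cenpf, Pbk, Nusap1 (0.51), Kif4 (0.40) and Melk (0.38), each of which was also higher in 129. The 4 called lower in B6 were Kif22, Bub1b, Cdc25b and Incenp. The count of 5 became 2 when B6 3DIV replicate 2 was left out, and also 2 when B6 3DIV GSK3 inhibitor replicate 1 was. Nusap1 lost its call without either of these arrays and with the mean of its probe sets (0.24, adjusted p = 0.112), and Kif4 without either of them, without B6 3DIV replicate 1 and with the compared groups alone (adjusted p = 0.0664).

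The strain difference in the response was tested directly, as the inhibitor effect in 129 minus that in B6. It was called for 33 of the 54 genes, each time with a positive sign, and for 0 with a negative one (0 at an unadjusted p under 0.05 too, against 46 with a positive sign). Over all genes 0.599% were called with a positive sign and 0.357% with a negative one, 109 genes with the positive sign, so that mitosis and spindle genes made up 30.3% of those. The median difference of effects was 0.94, against 0.03 over all genes. Of the 33 genes, 31 were called higher with inhibitor in 129 and 2 were not called there, and 26 were called in neither direction in B6, 4 were higher and 3 lower there. The 2 are Bub1b (0.87, SE 0.14) and Cdc25b (0.64, SE 0.13), whose larger change was the fall in B6. By role, the test called 6 of 9 genes of entry, 1 of 8 of condensation, 4 of 7 of the kinetochore, 4 of 5 of the checkpoint, 4 of 4 of the passenger complex, 4 of 10 of the spindle, 5 of 5 of anaphase and exit and 5 of 6 of cytokinesis.

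The largest differences of effects were those of Ube2c at 1.94 (SE 0.34, adjusted p = 0.0239), Birc5 at 1.84 (SE 0.19, adjusted p = 0.00283), Cdc20 at 1.78 (SE 0.24, adjusted p = 0.00750), Mki67 at 1.76 (SE 0.20, adjusted p = 0.00408), Bub1 at 1.74 (SE 0.30, adjusted p = 0.0207), Spc25 at 1.71 (SE 0.22, adjusted p = 0.00613), Melk at 1.69 (SE 0.13, adjusted p = 7.46e-04) and Cdca8 at 1.59 (SE 0.28, adjusted p = 0.0238), from limma. Aurkb followed at 1.54 (SE 0.18, adjusted p = 0.00456), Cdk1 at 1.35 (SE 0.24, adjusted p = 0.0260) and Plk1 at 0.97 (SE 0.17, adjusted p = 0.0250). Top2a at 1.15 (adjusted p = 0.0524, though called in 9 of 19 alternatives), Foxm1 at 0.09 and Bub3 at 0.16 were not called, and Kif2c was called at its probe set 1437611_x_at only (2.38, adjusted p = 0.00198). The number called depended on single arrays. Of the 54 genes, 11 were called without B6 3DIV replicate 1, 17 without B6 3DIV replicate 2, 11 without B6 3DIV GSK3 inhibitor replicate 1, 17 without 129 3DIV replicate 1, 9 without 129 3DIV replicate 2, and 9 when 129 3DIV GSK3 inhibitor replicate 1 was left out, while the median ran from 0.85 to 1.0 over these and the other fits with 1 array left out. Birc5, Cdc20, Mki67, Spc25, Melk and Aurkb stayed called in each of those fits, and Ube2c, Bub1, Cdca8, Cdk1 and Plk1 were each lost in some.

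**Figure D3:**
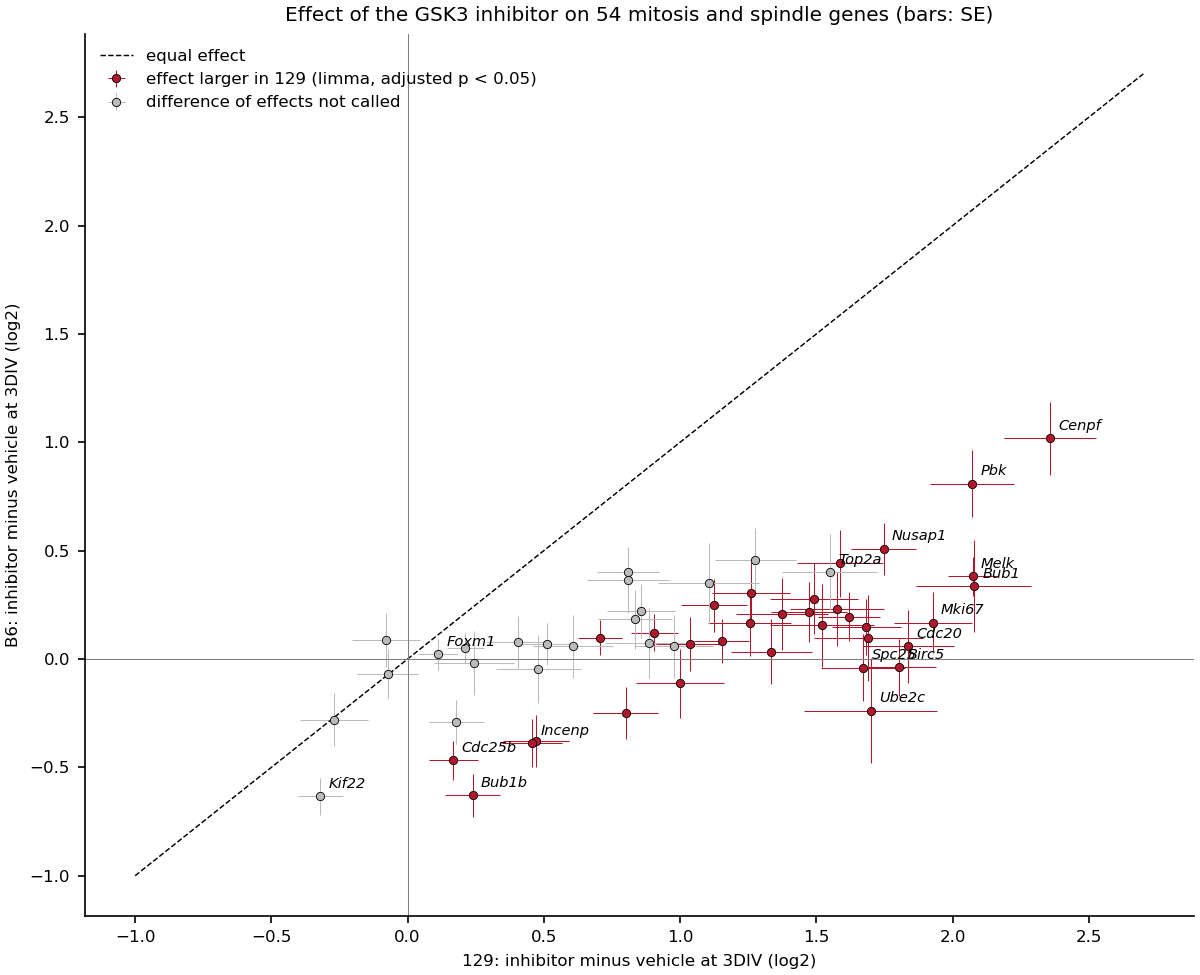
Inhibitor minus vehicle at 3DIV on the log2 scale in 129 (horizontal axis) and in B6 (vertical axis) for 54 mitosis and spindle genes, with bars of 1 SE. Points on the dashed line would have the same effect in both strains, and the 33 red genes, whose effects differed by limma, all lie to the right of it.

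Among the measured levels themselves, 129 and B6 explants with inhibitor differed in 46 of the 54 genes. Of these 44 were higher in 129 and 2 lower (7.32% and 5.02% of all genes), with a median of 0.96 against 0.02. The largest were Bub1 at 2.55 (SE 0.21, adjusted p = 2.27e-05), Melk at 2.39, Pbk at 2.38, Nusap1 at 2.27, Cenpf at 2.13, Ttk at 2.09, Mki67 at 2.06 and Top2a at 2.04. Pttg1 (-1.77) and Spc25 (-0.61) were lower in 129. Spc25 lost its call without any 1 of B6 3DIV GSK3 inhibitor replicate 1, B6 3DIV GSK3 inhibitor replicate 2 and 129 3DIV GSK3 inhibitor replicate 2, each of which left 1 gene called lower.

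The promoters of the genes with the largest differences of effects are shown with 2 motifs that cell cycle promoters are known for. These are the cell cycle genes homology region, TTTGAA, where the MuvB complex binds, and CCAAT, the box bound by NF-Y. RefSeq windows on build GRCm38.p6, from 250 bases before the annotated start to 50 bases after it, were at hand for 43 of the 54 measured genes, in 46 windows of 300 bases. Both strands were searched, and a match of one motif can overlap a match of the other by 1 letter at most. Shown are the 5 genes with the largest difference of effects that have a window, and Cdk1, whose product starts mitosis. Letters in capitals mark TTTGAA or CCAAT on either strand (as TTCAAA or ATTGG on the strand printed).
Ube2c, chr2:164769679-164769978, plus strand: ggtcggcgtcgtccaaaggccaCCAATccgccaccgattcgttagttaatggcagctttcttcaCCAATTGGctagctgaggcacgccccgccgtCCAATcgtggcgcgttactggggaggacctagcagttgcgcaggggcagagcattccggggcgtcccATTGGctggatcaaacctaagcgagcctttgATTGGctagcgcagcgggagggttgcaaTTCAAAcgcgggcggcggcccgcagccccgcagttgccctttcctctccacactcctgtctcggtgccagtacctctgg
Birc5, chr11:117848987-117849286, plus strand: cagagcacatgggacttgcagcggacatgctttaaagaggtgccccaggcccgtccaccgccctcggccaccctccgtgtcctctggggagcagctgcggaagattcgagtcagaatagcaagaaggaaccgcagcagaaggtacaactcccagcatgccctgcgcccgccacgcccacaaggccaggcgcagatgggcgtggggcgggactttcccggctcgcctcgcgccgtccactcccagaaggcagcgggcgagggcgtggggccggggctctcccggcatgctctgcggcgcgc
Cdc20, chr4:118437294-118437593, minus strand: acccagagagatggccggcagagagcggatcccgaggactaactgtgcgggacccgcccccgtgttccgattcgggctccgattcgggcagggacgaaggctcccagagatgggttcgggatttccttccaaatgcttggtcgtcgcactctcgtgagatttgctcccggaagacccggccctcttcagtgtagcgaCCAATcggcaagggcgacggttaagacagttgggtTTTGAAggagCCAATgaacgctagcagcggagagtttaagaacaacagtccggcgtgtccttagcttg
Mki67, chr7:135716330-135716629, minus strand: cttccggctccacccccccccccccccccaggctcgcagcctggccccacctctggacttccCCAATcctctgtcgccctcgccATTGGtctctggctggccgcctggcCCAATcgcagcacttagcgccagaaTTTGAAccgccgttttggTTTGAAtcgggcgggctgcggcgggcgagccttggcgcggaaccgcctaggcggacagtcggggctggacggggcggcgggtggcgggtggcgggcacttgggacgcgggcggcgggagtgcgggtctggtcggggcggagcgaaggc
Bub1, chr2:127831810-127832109, minus strand: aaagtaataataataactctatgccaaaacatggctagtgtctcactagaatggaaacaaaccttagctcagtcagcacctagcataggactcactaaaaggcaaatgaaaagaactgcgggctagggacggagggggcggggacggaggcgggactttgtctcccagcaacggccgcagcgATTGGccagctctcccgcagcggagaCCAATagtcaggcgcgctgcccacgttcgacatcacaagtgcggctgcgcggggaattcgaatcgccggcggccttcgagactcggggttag
Cdk1, chr10:69352863-69353162, minus strand: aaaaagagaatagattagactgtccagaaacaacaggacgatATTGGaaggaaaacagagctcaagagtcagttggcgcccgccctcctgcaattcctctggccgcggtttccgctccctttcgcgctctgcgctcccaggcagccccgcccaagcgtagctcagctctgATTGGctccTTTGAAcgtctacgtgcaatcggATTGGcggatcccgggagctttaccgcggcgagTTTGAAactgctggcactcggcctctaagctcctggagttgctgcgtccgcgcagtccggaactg
Positions are counted from the annotated start, with negative ones before it. In the Ube2c window on chromosome 2, TTTGAA began at -29, on the opposite strand, with 6 CCAAT matches before it. In Cdc20 on chromosome 4 it began at -18, in Cdk1 on chromosome 10 at -71 and -15, and in Mki67 on chromosome 7 at -116 and -98. The Bub1 window held 2 CCAAT matches and no TTTGAA, and that of Birc5 neither. Whether these letters are in the sequence outside the window was not examined.

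Over all 46 windows TTTGAA was found in 34 (73.9%), against 17.9% of 32851 windows of all genes. CCAAT was found in 34 (73.9%) too, against 37.4%, and both together in 30 (65.2%), against 6.95%. CACGTG, an E-box taken for comparison, was found in 3 (6.52%), against 7.15%. TTTGAA lay within 50 bases of the start in 67.4% of the windows of mitotic genes and in 4.94% of all windows. Among windows of genes with a called difference of effects 22 of 29 held TTTGAA (75.9%), against 12 of 17 (70.6%) of the remaining ones. A match is a description of the letters and not of a site that is used.

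**Figure D4:**
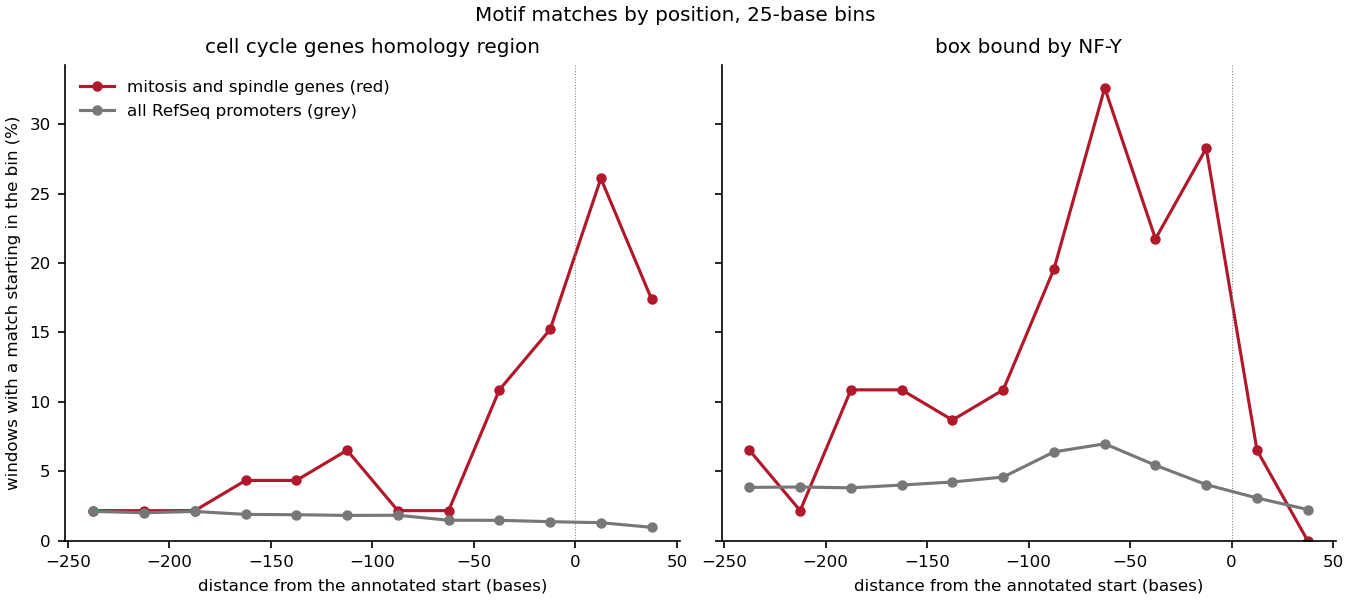
Share of promoter windows (vertical axis, in percent) with a match that starts in each 25-base bin, by distance from the annotated start (horizontal axis), for the cell cycle genes homology region (left) and the box bound by NF-Y (right), on either strand. In the 46 windows of mitosis and spindle genes (red) the shares reach 26.1% in the first 25 bases after the start and 32.6% between 75 and 50 bases before it, above the line of all 32851 windows (grey).

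The second question was what explanting itself did. At 3DIV with vehicle 31 of the 54 genes were higher than in the normal retina in 129 and 4 were lower, where 19.1% of all genes were called higher and 17.0% lower. In B6 25 were higher and 5 lower, against 19.3% and 16.9%. Of the genes called higher, 24 were shared by both strains, which is 77.4% of those in 129 and 96.0% of those in B6, against 71.8% and 71.2% over all genes. The medians were 0.64 in 129 and 0.20 in B6, against -0.01 and 0.00 over all genes.

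Mki67 had the largest rise in 129. It read 7.04 and 7.05 in 129 explants, against 4.15 and 4.47 in the 129 normal retina (2.73, SE 0.14, adjusted p = 1.48e-07), and 6.86 and 6.62 in B6 explants, against 4.56 and 4.41 in the B6 normal retina (2.26, SE 0.14, adjusted p = 6.72e-07). The largest rise in B6 was that of Birc5, which read 6.06 and 5.98 in B6 explants, against 3.87 and 3.60 in the B6 normal retina (2.28, SE 0.13), and 6.25 and 5.89 in 129 explants, against 3.65 and 3.78 in the 129 normal retina (2.36, SE 0.13). Top2a rose by 2.39 in 129 and 1.63 in B6, Bub1 by 1.98 and 1.31, Cdk1 by 1.87 and 1.28, Pbk by 1.86 and 1.16, Nusap1 by 1.73 and 0.77, Prc1 by 1.47 and 1.16, and Ube2c by 1.24 and 1.31. In each of these the values at 3DIV lay above both of the normal retina in both strains. They were picked for their large called rises, so this is a description and no further support. Without array 2 of the 129 normal retina the rises in 129 were 2.89 for Mki67 and 2.42 for Birc5. Markers of pigmented epithelium and melanocytes moved in the same comparison, 9 of 12 being lower in 129 explants and 11 of 12 in B6 explants than in the normal retina, and their part in the mitotic values was not tested.

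Other genes of the list rose less, were not called or were called lower. Plk1 differed by 0.17 in 129 and 0.14 in B6, Foxm1 by -0.09 and 0.04, and Bub3 by 0.16 and 0.10, and none of these was called. Aurkb rose by 0.66 in 129 and by 0.54 in B6, the B6 call being lost without B6 3DIV replicate 2 (adjusted p = 0.0720). Genes called lower in 129 were Nek2 (-0.69), Ect2 (-0.68), Cdc25b (-0.36) and Bub1b (-0.33), and in B6 Spc25 (-2.67), Nek2 (-0.77), Ccna2 (-0.55), Bub1b (-0.51) and Kif4 (-0.37). In 129 the call of Bub1b was lost without any 1 of the 4 arrays compared, that of Cdc25b without 129 normal replicate 1 or 129 3DIV replicate 2, and that of Ect2 without 129 3DIV replicate 2. In B6 the call of Kif4 was lost under centring on housekeeping genes (adjusted p = 0.0739) and without any 1 of the 4 arrays compared (adjusted p = 0.0552 to 0.141). Of Nek2 another probe set, 1437580_s_at, rose by 0.36 in 129. Without array 2 of the 129 normal retina, the one rich in lens RNA, 30 genes were higher and 3 lower in 129, and the 4 lower became 2 without 129 normal replicate 1 and 1 without 129 3DIV replicate 2. The brightest probe sets of Top2a, Kif22, Cenpa and Cdca3 rose in B6 while dimmer ones of the same genes, such as 1427724_at of Top2a (-0.30), fell.

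Microglial markers rose after damage and fell with the inhibitor. Of 17 measured, 13 rose after damage in 129 and 15 in B6, against 19.1% and 19.3% of all genes. With inhibitor 9 fell and 1 rose in 129 and 13 fell in B6, where 7.86% and 12.5% of all genes were called lower. The summed intensity of these markers was 1994 to 2013 in 129 explants with inhibitor, 3000.0 to 3069 in those with vehicle and 1372 to 1420 in the 129 normal retina. In B6 these sums were 3127 to 3270, 6207 to 6919 and 2007 to 2091. RMA intensities have no true 0, so no marker can be called absent. Müller glial markers summed to 39781 to 44028 in 129 explants with inhibitor, 48752 to 51515 with vehicle and 35050 to 36213 in the 129 normal retina. The corresponding sums in B6 were 50903 to 52542, 56951 to 58902 and 33422 to 34715. With inhibitor 4 of the 15 Müller glial markers fell in each strain with none higher. The part of these cells in the mitotic values was not tested.

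**Figure D5:**
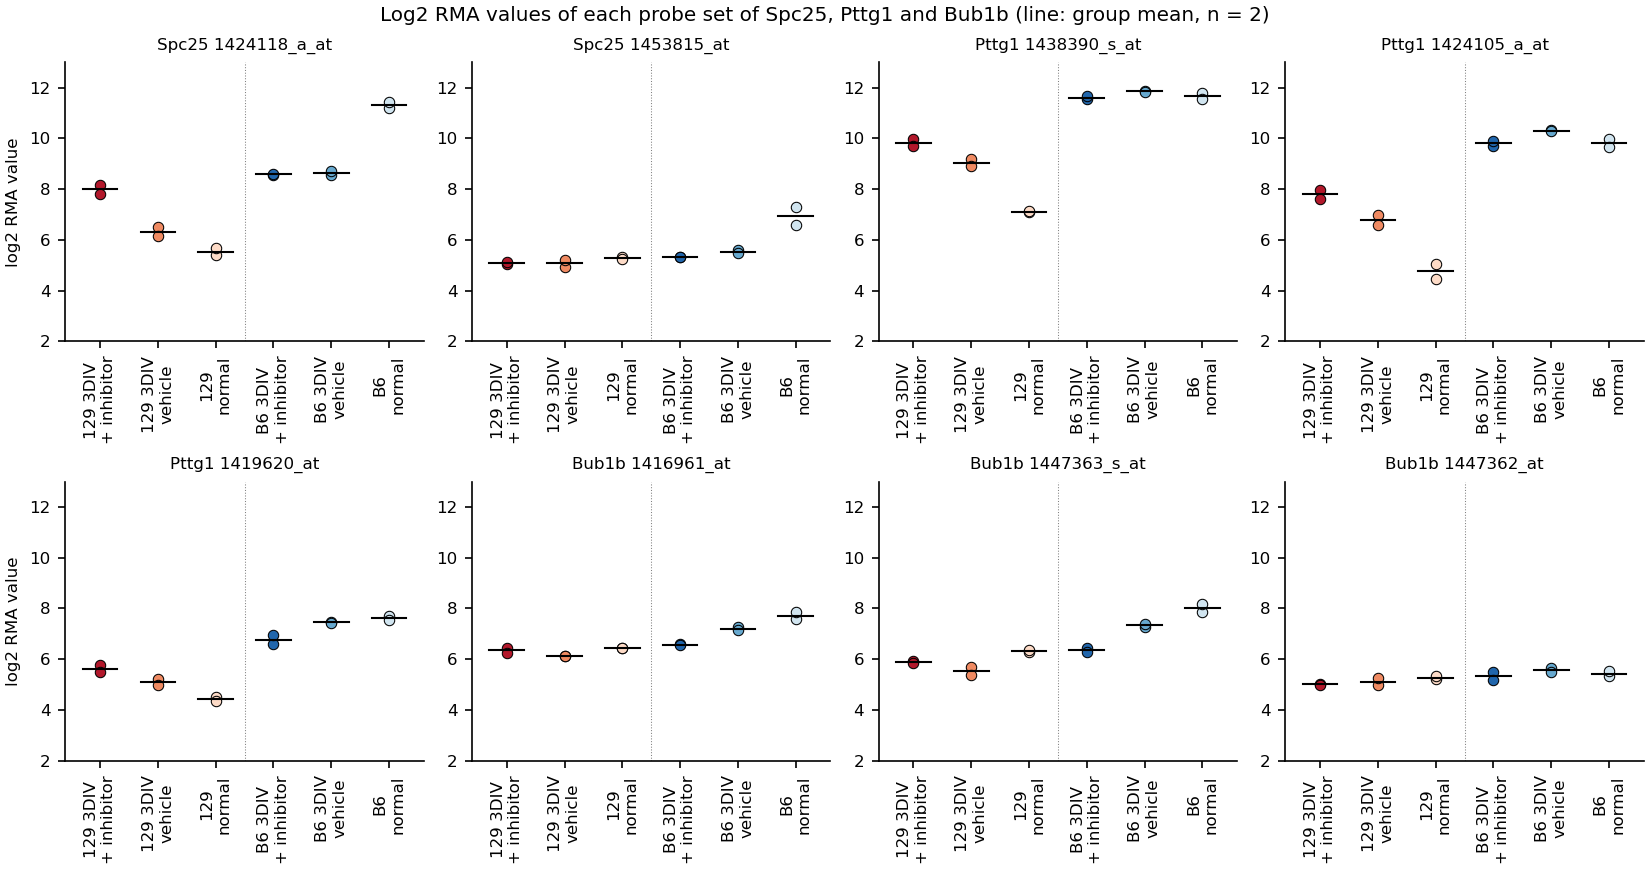
Log2 RMA value (vertical axes, 1 range for all panels) of each probe set of Spc25, Pttg1 and Bub1b on each array, in 6 groups of 2 arrays, with 129 left of the dotted line and B6 right of it. Points are arrays and lines group means, and in the normal retina the brightest probe set of each gene is lower in 129 than in B6, with differences of -5.77 for Spc25, -4.56 for Pttg1 and -1.27 for Bub1b.

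The third question was whether the strains already differed without inhibitor. In the normal retina 4 of the 54 genes were higher in 129 and 5 lower (5.41% and 5.83% of all genes). Spc25, a subunit of the NDC80 complex, read 5.40 and 5.67 in the 129 normal retina, against 11.18 and 11.43 in the B6 normal retina, a difference of -5.77 (SE 0.16, adjusted p = 1.06e-08) that makes it 54.6-fold lower. After damage it read 6.49 and 6.13 in 129 explants, against 8.56 and 8.71 in B6 explants, and with inhibitor 8.18 and 7.79 in 129, against 8.57 and 8.61 in B6. After damage it thus rose by 0.78 in 129 and fell by 2.67 in B6, the rise in 129 not being called when its probe sets were averaged (0.28, adjusted p = 0.10). The dimmer probe set of Spc25, 1453815_at, differed by -1.64 in the normal retina and by -0.46 at 3DIV, and its inhibitor effect in 129 was 0.01 (adjusted p = 0.984), so that the rise of Spc25 with inhibitor rests on 1 of its 2 probe sets.

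Pttg1, the gene of securin, which holds separase inactive until anaphase, read 7.10 and 7.12 in the 129 normal retina, against 11.79 and 11.55 in the B6 normal retina (-4.56, SE 0.12, adjusted p = 1.06e-08). At 3DIV it read 9.17 and 8.90 in 129, against 11.88 and 11.82 in B6, and with inhibitor 9.97 and 9.70 in 129, against 11.54 and 11.66 in B6. Its 3 probe sets differed between normal retinas by -5.04 to -3.22. Bub1b read 6.44 on both arrays of the 129 normal retina, against 7.57 and 7.85 in the B6 normal retina (-1.27, SE 0.10, adjusted p = 1.48e-05). Without array 2 of the 129 normal retina the differences were -5.90 for Spc25, -4.57 for Pttg1 and -1.27 for Bub1b. Nuf2 at -0.82 was lower in 129 too. Ccna2 at -0.43 (adjusted p = 0.0475) kept its call in 7 of 19 alternatives only, and without B6 normal replicate 1 it differed by -0.24 (adjusted p = 0.263). Higher in the 129 normal retina were Ect2 (0.68), Dlgap5 (0.54), Aurka (0.50) and Cdc25b (0.35). The 4 higher genes became 2 without B6 normal replicate 1, 1 without 129 normal replicate 1 and 1 without 129 normal replicate 2, the array rich in lens RNA, without which Ect2, Aurka and Cdc25b were not called. Aurka and Cdc25b were not called with the compared groups alone either.

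At 3DIV with vehicle 9 genes were higher in 129 and 3 lower, against 10.8% and 10.2% of all genes. The 3 lower were Pttg1, Spc25 and Bub1b, with differences from -2.81 for Pttg1 to -1.08 for Bub1b. The 9 were Pbk (1.12, SE 0.15, adjusted p = 5.20e-04), Nusap1 (1.04), Ttk (1.0), Top2a (0.90), Bub1 (0.81), Cenpf (0.79), Melk (0.70), Prc1 (0.61) and Ncaph (0.37), and each was also higher in 129 than in B6 with inhibitor. Mki67 at 0.30 (adjusted p = 0.168), Cdk1 at 0.39 (adjusted p = 0.145), Aurkb at 0.23 and Plk1 at -0.09 were not called. Top2a and Bub1 were not called when all probe sets of a gene were averaged (0.20 and 0.25), Bub1 was not called without B6 3DIV replicate 2, 129 3DIV replicate 1 or 129 3DIV replicate 2, and 5 genes were called when 129 3DIV replicate 1 was left out.

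Between strains, the change after damage was called different for 4 genes, all with the higher change in 129, and for 0 in the other direction, where 3 had an unadjusted p under 0.05 (1.74% and 1.32% of all genes). They were Spc25 at 3.45 (SE 0.22, adjusted p = 3.90e-05), Pttg1 at 1.75 (SE 0.17, adjusted p = 6.21e-04), Nusap1 at 0.96 (SE 0.17, adjusted p = 0.0170) and Melk at 0.66 (SE 0.13, adjusted p = 0.0269). Nusap1 and Melk both lost the call without 129 normal replicate 2, the array rich in lens RNA, and also when B6 3DIV replicate 2 was dropped, and 2 genes remained each time. Melk lost it too with the compared groups alone (adjusted p = 0.0613) and without B6 normal replicate 1, B6 3DIV replicate 1 or 129 3DIV replicate 2, and Nusap1 with the mean of its probe sets (0.37, adjusted p = 0.178) and without 129 3DIV replicate 1.

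Genes around the list were counted in the same way, and the shares of all genes given above for each comparison apply to them too. Of 65 other genes of kinetochore, chromosome and spindle, 37 rose and 1 fell with inhibitor in 129, 6 rose and 1 fell in B6, and 17 had a positive difference of effects, 129 minus B6. The largest rises in 129 were those of Depdc1a at 2.24 (SE 0.14, adjusted p = 1.00e-05), Cep55, which acts at abscission, at 1.92, Cks2, a partner of Cdk1, at 1.56 and Shcbp1 at 1.52. Of 13 genes of cohesin and its regulators, Esco2, an acetyltransferase of cohesin, rose by 2.22 in 129 (SE 0.09, adjusted p = 7.69e-07) with a difference of effects of 2.06, and 2 fell. Of 15 subunits of the anaphase-promoting complex, the differences with inhibitor in 129 ran from -0.24 to 0.19 without a call, and 4 fell in B6.

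DNA replication takes place in S phase, before G2 and mitosis. Of its 48 measured genes 20 rose and 1 fell with inhibitor in 129, 1 rose and 6 fell in B6, and 3 had a positive difference of effects, with medians of 0.32, -0.03 and 0.38. In 129 the rises are 41.7% of the list, against 7.28% of all genes, whereas the 12.5% of the list that fell in B6 equals the 12.5% of all genes. After damage 27 rose in 129 and 12 in B6 (56.2% and 25%, against 19.1% and 19.3% of all genes), led in both by Rrm2, a subunit of ribonucleotide reductase, at 4.19 and 2.82. Of 18 E2F, RB and MuvB regulators 2 rose and 2 fell with inhibitor in 129, and the differences of effects ran from -0.31 to 0.56. The largest rise among them in 129 was 0.40 for E2f1.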

How the data were processed

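Members and lists were chosen with earlier results of these data known, as were the genes given with statistics, namely up to 8 called members with the largest difference in each comparison, those called against the majority, and always Mki67, Top2a, Cdk1, Ccnb1, Aurkb, Plk1, Foxm1, Bub3 and Spc25. The arrays were Affymetrix expression arrays of the mouse genome. The authors deposited linear intensity values per probe set, made with RMA, with a version not given in the sources used here. By the labels, the inhibitor dose was 15 µM, whereas the methods name a higher one as well.

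Intensities were taken to log2 and 64 control probe sets of 45101 were left out, with no filter on signal. Of the rest, 34945 had 1 gene symbol, 932 several and 9160 none, after symbols were updated through Entrez IDs. A model with a mean for each of 6 groups was fitted with limma 3.58.1 (R 4.3.3, eBayes with 4.69 prior and 6 residual degrees of freedom), and p-values were adjusted over all 45037 probe sets in each of 9 comparisons. The fit was tested on simulated data. RefSeq gave promoter windows (GRCm38.p6) and was read for 43 of 54 genes. Alternatives were a replicate block, the compared groups alone, cyclic loess, housekeeping centring, a filter on dim probe sets, eBayes with trend and robust, the mean of a gene's probe sets, each array left out and, chosen after seeing the data, any probe set of a gene. Arrays with the same replicate number did not deviate together (15 pairs, correlations -0.107 to 0.044). The number of arrays limits the precision.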

Additional observations from a re-analysis of the deposited data

Results flagged for a closer look

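The inhibitor effect differed between the strains in 33 mitosis and spindle genes by limma's test of the difference itself. Those given with statistics were Ube2c (1.94), Birc5 (1.84), Cdc20 (1.78), Mki67 (1.76), Bub1 (1.74), Spc25 (1.71), Melk (1.69), Cdca8 (1.59), Aurkb (1.54), Cdk1 (1.35) and Plk1 (0.97), each the log2 effect in 129 minus that in B6. After damage, 4 genes had a change that differed between strains by the same kind of test, namely Spc25 (3.45), Pttg1 (1.75), Nusap1 (0.96) and Melk (0.66). No group held enough arrays for a test of single outlying values.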

How the results depend on the processing

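Of the called differences of named genes, 0 of 1749 alternatives changed sign, whereas differences that were not called did so in 30 of 769, none of them above 0.16 on the log2 scale. Many of these alternatives could not change a sign, so the counts are no measure of stability. The replicate block, the compared groups alone, the filter on dim probe sets and eBayes with trend and robust leave the difference itself as it was. So does leaving out an array that is not in the comparison. Over genes and settings 2400 results kept their side of the threshold, 101 lost and 17 gained a call, and of the medians 165 moved by less than the spread between replicates and 6 by more. Where a probe set had to exceed the median level by its mean over all 12 arrays, 28 of the 54 genes were left. In 129 explants with inhibitor 46 to 47 of the 54 lay above the array median, against 25 to 27 with vehicle. Genes could thus pass through the group tested, and the counts left are no independent support. Shares of all genes were not counted in this filtered fit, and those given above do not apply to it. The numbers higher were 21 and 2 with inhibitor in 129 and B6, and 19 for the difference of effects. They were 17 and 12 after damage in 129 and B6, and 2 for the difference in change. For 129 against B6 at 3DIV they were 4 without and 21 with inhibitor. With the mean of all probe sets of a gene 0 genes were lower with inhibitor in 129. With the compared groups alone 2 genes were higher in the 129 normal retina. Housekeeping centring left 1 gene with a lower change after damage in 129 than in B6, as did eBayes with trend and robust, and turned the median of the normal retinas to 0.02, against -0.04. When any probe set of a gene counted, an alternative chosen after seeing the data, 9 genes were lower after damage in B6, 14 higher and 6 lower in 129 at 3DIV, and 4 lower in 129 with inhibitor. With 1 array left out, the counts of genes ran from 36 to 43 higher and 0 to 1 lower with inhibitor in 129, and from 2 to 6 higher and 3 to 6 lower in B6. They ran from 9 to 35 for the difference of effects, from 28 to 33 higher and 1 to 5 lower after damage in 129, from 18 to 25 and 4 to 6 in B6, and from 2 to 5 for the difference in change. For 129 against B6 they ran from 1 to 4 higher and 4 to 5 lower in the normal retina, from 5 to 10 higher at 3DIV, and from 38 to 44 higher and 1 to 2 lower with inhibitor. Arrays with the same replicate number did not deviate together, but with 2 arrays a group this cannot exclude a shared animal. With the replicate block 44 genes were higher with inhibitor in 129 and 30 had a positive difference of effects. The cause was not tested. Dim probe sets, 26 of 54 here, limit what small differences can show.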
